A study of Homo sapiens with 2 samples.

Results

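Chromosomes 7 and 13 of Z-138, a mantle cell lymphoma line, carried 9862 of the 96870 peaks of accessible chromatin in 2 ATAC-seq lists. A peak belonged to the set when the first column of its list read 7 or 13. The control list gave 3588 peaks on chromosome 7 and 1937 on chromosome 13, out of 55259. The knockdown list gave 2853 and 1484, out of 41611. The pair was chosen by a measured value, the local background of these peaks, so its standing among the autosomes is a description and no test is made of it.

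ATAC-seq cuts and tags open chromatin with a transposase. Z-138 is an established human line of mantle cell lymphoma, a cancer of mature B cells. One library came from cells with a control shRNA and 1 from cells with an shRNA against SMARCA4, the ATPase of SWI/SNF chromatin remodellers, and both cultures received doxycycline. The study ties the knockdown to the response to ibrutinib and venetoclax, and the peak names hold the term DMSO, but the sample labels name neither drug. Neither list measures SMARCA4 itself, and no defining marker of B cells could be read from it, since no hg19 gene annotation was used here. With 1 library per group no difference between the groups can be tested, and the spread between cultures is unknown.

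A cell with an extra copy of a chromosome offers more template there, so that stacked reads at open sites and stray reads between them both tend to rise in ATAC-seq. Stray reads are also set by how closed the chromatin is, how well its sequence can be mapped and how many open sites lie nearby. Mantle cell lymphomas recurrently lose parts of the long arm of chromosome 13, which carries the tumour suppressor RB1, and recurrently gain material of chromosome 7, which carries the kinase genes CDK6, EGFR and BRAF. Chromosome 13 is gene-poor, its middle long arm above all, and its short arm consists of repeats that the hg19 assembly does not contain. The lists hold no direct measure of copy number, and no sequence of the build hg19 was at hand, so regions are given by position only.

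For each peak the peak caller deposits a fold and a p-value. Together these fix the summit pileup, which is the number of reads stacked at the highest point, and the local background, given here as reads in the 10 kb around the peak. Where those 10 kb held fewer reads than the genome average, the caller used a genome-wide floor in their place, equal to 25.5 reads per 10 kb in control and 36.2 in knockdown cells. The ratio of these floors, 1.42, is the depth of the knockdown over the control library. A window below is a 5 Mb interval counted from position 0, and a peak was placed in it by its summit. Relative values are medians divided by the median over peaks of the other 20 autosomes of the same library, and their 95% intervals cover counting error over peaks only, with that reference held fixed. All intervals treat peaks as independent, though close peaks share reads, so they can be too narrow.

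Chromosomes 13 and 7 had the highest local background of all 22 autosomes in both libraries. The median on chromosome 13 was 58 reads per 10 kb in control (95% interval 56 to 61, 1937 peaks) and 84 in knockdown cells (82 to 86, 1484 peaks). On chromosome 7 it was 57 reads per 10 kb (55 to 58, 3588 peaks) and 83 (81 to 85, 2853 peaks). The intervals of chromosomes 7 and 13 overlapped in each library, so their order is not resolved. The other 20 autosomes together had medians of 43 and 62 reads per 10 kb. Relative to these, chromosome 13 stood at 1.35 in control and 1.35 in knockdown cells, and chromosome 7 at 1.33 and 1.34. Next came chromosome 12, at 1.26 and 1.29, with 54 and 80 reads per 10 kb, and then chromosome 1, at 1.12 and 1.13, with 48 and 70 reads per 10 kb. The lowest of the other autosomes was chromosome 22, at 0.721 and 0.782. Chromosome X had lower medians than every autosome, 30 (29 to 32) and 45 (43 to 48) reads per 10 kb. Its intervals overlapped those of chromosome 22, so that order is not resolved.

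**Figure D1:**
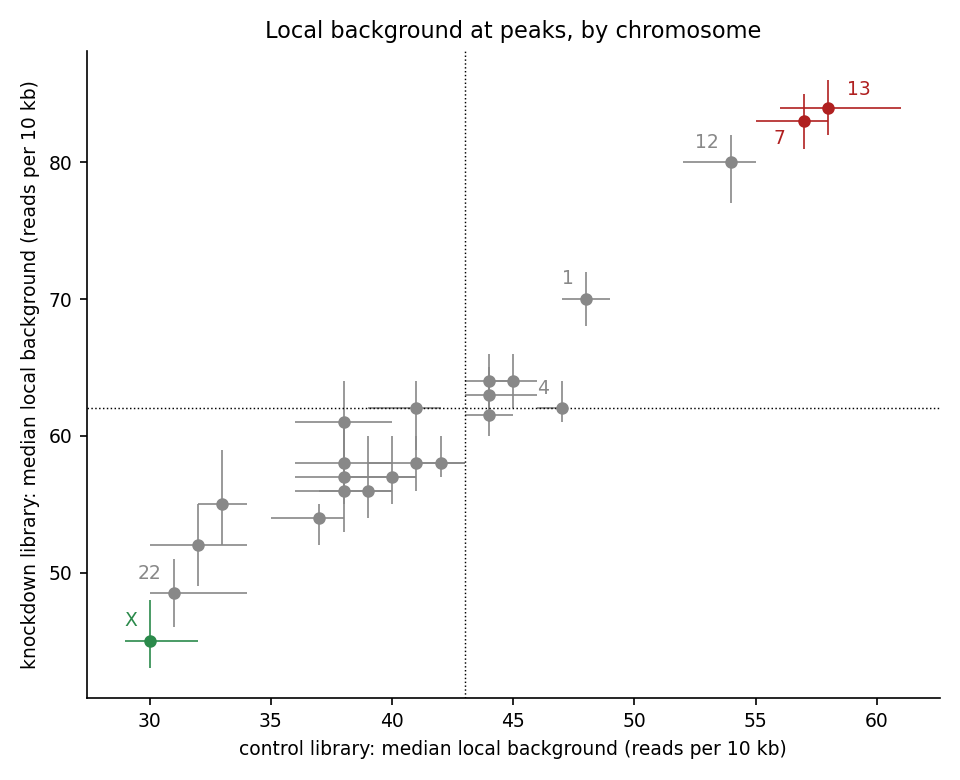
Median local background at peaks (reads per 10 kb) of each chromosome in the control library (horizontal axis) and the knockdown library (vertical axis), with 95% intervals of the median; dotted lines mark the other 20 autosomes together. Chromosomes 7 and 13 (red) lie at 57 and 58 reads per 10 kb in the control and at 83 and 84 in the knockdown library, above chromosome 12 at 54 and 80.

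The higher background ran through most of the distribution of both chromosomes and was not made by a few peaks. The lower quartile was 36 reads per 10 kb on chromosome 7 and 39 on chromosome 13 in the control library, against 27 over the other autosomes. In the knockdown library these quartiles were 55 and 57, against 44. Fewer peaks rested on the genome-wide floor, at 10.3% on chromosome 7 and 10.8% on chromosome 13 in the control, where the other autosomes had 21.0%. The knockdown shares were 4.87% and 5.32%, against 15.0%. At the upper end, local background of at least 5 times the reference median was found at 149 control peaks of chromosome 7, or 4.15% (3.52 to 4.86%), and at 105 of chromosome 13, or 5.42% (4.46 to 6.52%), against 1.77% on the other autosomes.

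Summit pileups were higher as well, by a smaller factor than the background. The median control summit held 10 reads on both chromosomes and 8 reads on the other autosomes. In the knockdown library it held 12 reads on chromosome 7, 11 on chromosome 13 and 10 on the others. These medians were not particular to the pair. Chromosome 12 had 10 and 12 reads, and the knockdown median was 11 on chromosomes 1, 2, 4 and 5 too. The 90th percentile was 26 reads on chromosome 7 and 25 on chromosome 13 in the control library, against 20, and 32 and 29 in the knockdown library, against 25. How far summits stood out from their surroundings depended on the measure. The ratio of pileup to background at the summit, without the read that the caller adds, had a median of 19.5 on chromosome 7 and 18.3 on chromosome 13 in the control library, the lowest pair of the 22 autosomes, against 20.8 over the others. In the knockdown library the ratios were 17.0 and 16.1, again the lowest pair, against 18.6. The deposited fold, which has the read added, was not low. Its control median was 6.90 on chromosome 7, the highest of the 22 autosomes, and 6.59 on chromosome 13, against 6.44 over the others. The knockdown medians were 7.19 and 6.89, against 7.01. The caller's limit rises with the background and removes weak summits, and how far this moves the medians was not tested.

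Peak number set the chromosomes apart from each other. Chromosome 7 had 112 control and 89.2 knockdown peaks per 5 Mb window, which is 1.21 (1.168 to 1.247) and 1.27 (1.23 to 1.32) times the other autosomes. Chromosome 13 had 92.2 and 70.7 peaks per window, or 0.993 (0.949 to 1.04) and 1.01 (0.959 to 1.06) times the others. These values count its sparse first and last windows, which held 9 and 6 control peaks. With windows of 1 Mb the ratios were 1.032 and 1.05. In density of control peaks chromosome 7 ranked 3 and chromosome 13 ranked 9 of the 22 autosomes. Crowding of peaks adds reads to the 10 kb around each of them, and its part in the background was not tested. Another peak of the same list lay within 5 kb of 30.0% of control peaks on chromosome 7 and 28.8% on chromosome 13, against 30.1% on the other autosomes.

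Along chromosome 7 the local background was high in most windows and dropped in a few to the level of the other autosomes or below. All 32 windows held at least 20 peaks in each list. Windows at or below 0.8 times the reference were counted as low, and those at or above the reciprocal of 0.8 as high. In the control library 19 of 32 windows were high, where 13.2% of all autosomal windows were, and 1 of 32 was low, where 19.3% were. In the knockdown library the numbers were 22 of 32, against 14.3%, and 0 of 32, against 10.8%. In 17 windows of chromosome 7 both libraries were high, where they were in 9.74% of all windows, and in 0 both were low, where they were in 7.9%.

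Those windows came in blocks. From 5 to 25 Mb, 4 windows in a row lay between 1.40 and 1.70 in the control and between 1.27 and 1.5 in the knockdown library. The 4 windows from 80 to 100 Mb lay between 1.40 and 1.53 and between 1.31 and 1.60. From 105 to 130 Mb, 5 windows lay between 1.26 and 1.78 and between 1.35 and 1.72. After the first block, 0 of the 5 windows from 25 to 50 Mb were high in the control library, and 1 was in the knockdown library. High control windows followed from 50 to 65 Mb, at 1.42, 1.53 and 2.61, of which the last 2 were also high in the knockdown library. At isolated peaks, with no other peak within 10 kb, 3 of 4 windows stayed high in both libraries in each of the first and the second block, and 5 of 5 in the last. The window from 20 to 25 Mb then had 1.19 and 1.07, and that from 95 to 100 Mb had 1.2 and 1.17.

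The highest window of chromosome 7, from 60 to 65 Mb, adjoins the centromere and is the least typical. Its control median was 112 reads per 10 kb with an interval from 37 to 164 over 41 peaks, and its knockdown median was 153.5 (72 to 185, 30 peaks). At peaks with no other peak within 10 kb its relative value was 1.06 in control (23 peaks) and 2.45 in knockdown cells (22 peaks), but these medians of few peaks had wide intervals that overlapped, from 28 to 112 and from 42 to 182 reads per 10 kb. The next windows were better filled. From 120 to 125 Mb the medians were 76.5 (69 to 87) and 106.5 (96 to 121) reads per 10 kb, and from 10 to 15 Mb they were 73 (69 to 80) and 93 (86 to 100). The lowest were the window from 65 to 70 Mb, at 33 (28 to 44) and 56 (46 to 93), the window from 130 to 135 Mb, at 36 (30 to 43) and 63 (55 to 76), and the window from 70 to 75 Mb, at 37 (29 to 47) and 61 (48 to 75). Neighbouring windows could thus differ by more than their intervals: from 125 to 130 Mb the relative value was 1.53 in control and 1.52 in knockdown cells, and in the next window it was 0.837 and 1.02.

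**Figure D2:**
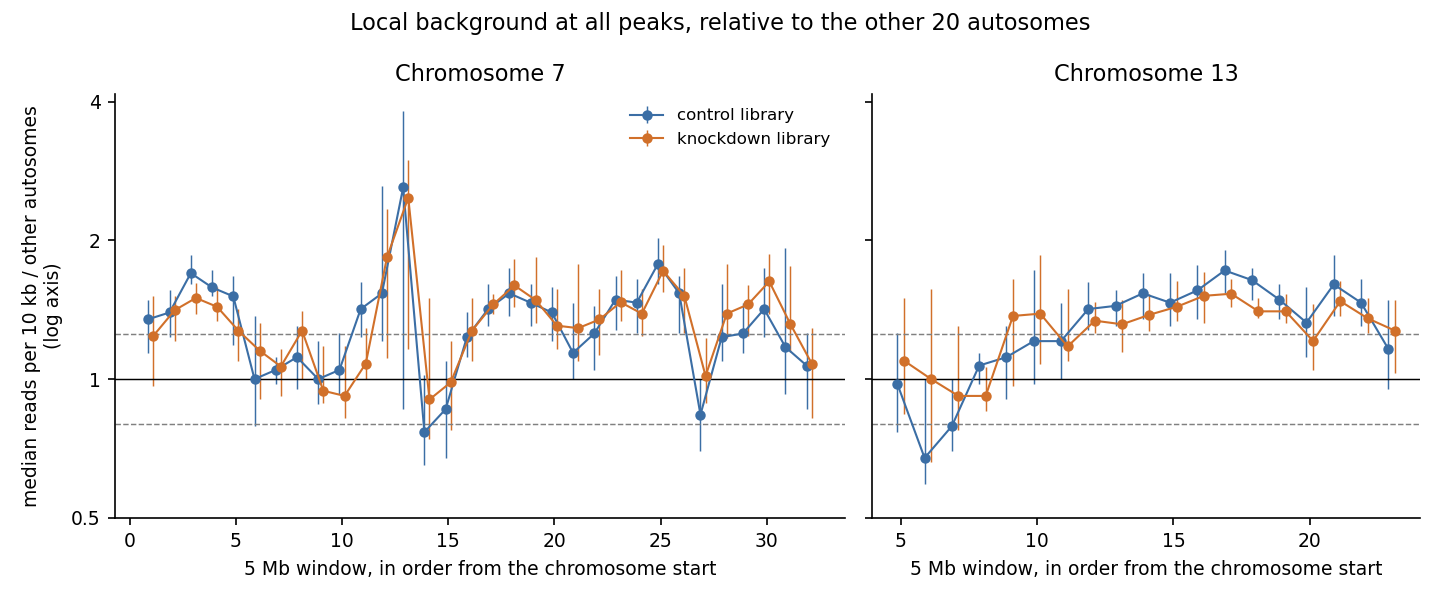
Median local background of each 5 Mb window with at least 20 peaks, divided by the median of the other 20 autosomes (log axis), in order along chromosomes 7 and 13; bars are 95% intervals of the median, the solid line marks 1 and the dashed lines 0.8 and its reciprocal. On chromosome 7 blocks of high windows alternate with windows near 1, while on chromosome 13 control values lie as low as 0.674 near the start and reach 1.72 further on.

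On chromosome 13 the background was high in the middle of the long arm and lower near its start. The first peak began at position 19218027, and 19 of its 21 windows with peaks held at least 20 in both lists. The first and the last of them held 9 and 6 control peaks and are left out of the counts. Of the 19 windows, 11 were high and 2 low in the control library, and 13 high and 0 low in the knockdown library. These counts stand against the same shares over all autosomal windows as for chromosome 7. Low control windows, at 10.53%, were thus less frequent than the 19.3% over all autosomes. In 10 windows both libraries were high.

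The low windows of the control library were among the first 3 counted, and the upper bound of their relative intervals was 1. Control medians were 42 reads per 10 kb from 20 to 25 Mb (33 to 54), 29 from 25 to 30 Mb (25.5 to 43, the lower bound at the floor) and 34 from 30 to 35 Mb (30 to 43). The knockdown medians there were 68 (52 to 93), 62 (41 to 97) and 57 (48 to 81), or 1.10, 1 and 0.919 times the other autosomes. From 25 to 30 Mb 47.95% of control peaks rested on the floor. The relative control value of that window, 0.674, was 0.729 at isolated peaks. It was 1.47 without peaks at the floor, 1.06 at q-values up to 1e-05 and 1.13 at partnered peaks. The high stretch ran from 55 to 95 Mb, where 8 windows in a row were high in both libraries, between 1.42 and 1.72 in the control and between 1.31 and 1.53 in the knockdown library. Its highest windows were those from 80 to 85 Mb, with 74 (66 to 82) and 95 (89 to 102) reads per 10 kb, and from 85 to 90 Mb, with 70.5 (64 to 75) and 87 (84 to 93). The next in rank lay outside the stretch, from 100 to 105 Mb, at 69 (59 to 80) and 91.5 (85 to 101).

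The window profiles of the libraries resembled each other. Across the 32 windows of chromosome 7, Pearson's r between the relative background of the control and of the knockdown library was 0.905 and Spearman's rho was 0.855. Over 19 windows of chromosome 13 these were 0.863 and 0.870, and over 493 windows of the other autosomes 0.817 and 0.771. For reads around isolated peaks without the summit's own, Pearson's r was 0.758 on chromosome 7, 0.981 on chromosome 13 and 0.874 on the other autosomes, so the order of chromosome 7 and the others depends on the measure. Windows share their sequence, its mappability and many of the same open sites between libraries, so these values describe likeness and have no p-value.

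Isolated peaks, with the reads of their own summit taken away, gave an approximate measure of the reads between open sites. Only the pileup at the highest point is subtracted, so other reads of the same peak remain. Isolated means that no other peak of the list lay within 10 kb, which held for 1877 control peaks of chromosome 7 and 1090 of chromosome 13. The remaining reads per 10 kb were 1.5 times those of the other autosomes on chromosome 7 and 1.62 times on chromosome 13 in the control library, and 1.40 and 1.55 times in the knockdown library. Chromosomes 12 and 4 followed, at 1.35 and 1.23 in the control and 1.26 and 1.12 in the knockdown library. Part of this measure is limited by the floor, since a peak at the floor had at most that many reads around it.

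On chromosome 13 this measure rose between adjacent windows at 55 Mb, from 1.23 to 1.87 in the control and from 1.19 to 1.68 in the knockdown library. The 7 windows from 20 to 55 Mb had values from 0.828 to 1.23 in the control and from 0.718 to 1.19 in the knockdown library, with medians of 1 and 1.10. The lowest values, 0.828 and 0.718, were set by the floor and are upper limits. The 8 windows from 55 to 95 Mb had values from 1.81 to 2.12 and from 1.64 to 1.88, with medians of 1.88 and 1.70. The ranges of the stretches did not overlap in either library. Beyond 95 Mb, 4 windows spread between 1.12 and 1.73 and between 1.01 and 1.64. Peaks were also sparser in the high stretch: 22.01% of its control peaks had another within 5 kb, against 33.8% from 20 to 55 Mb.

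Windows of the other autosomes with like numbers of peaks seldom reached such values. Taken were windows whose number of peaks lay within the range of the high stretch of chromosome 13. Among 349 such windows in the control library, the median was 0.962 (quartiles 0.828 and 1.23), and 10 were at or above 1.81, the lowest value of the stretch. In the knockdown library there were 208 such windows, with 57 to 80 peaks and a median of 0.964, and 5 reached the lowest value of the stretch. This comparison and the division at 55 Mb were chosen after the values were seen. Gene density, sequence composition and mappability of the windows were not measured, and their part in the profile was not tested; copy number and closed or open chromatin cannot be told apart in it.

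Chromosome 7 showed several rises of similar height in place of 1 long one. The remaining reads reached 2.19 times the other autosomes from 10 to 15 Mb, 1.85 from 85 to 90 Mb, 2.08 from 120 to 125 Mb and 1.88 from 145 to 150 Mb in the control library. The knockdown library gave 1.83, 1.88, 1.95 and 1.85 there. Low points lay at 0.828 from 25 to 30 Mb, at 0.828 from 70 to 75 Mb and at 0.923 from 130 to 135 Mb in the control, with 0.762, 0.905 and 0.952 in the knockdown library. The control value of 0.828 is the floor less the summit, 21.5 reads per 10 kb, and so is an upper limit. These windows were picked after their values were seen.

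**Figure D3:**
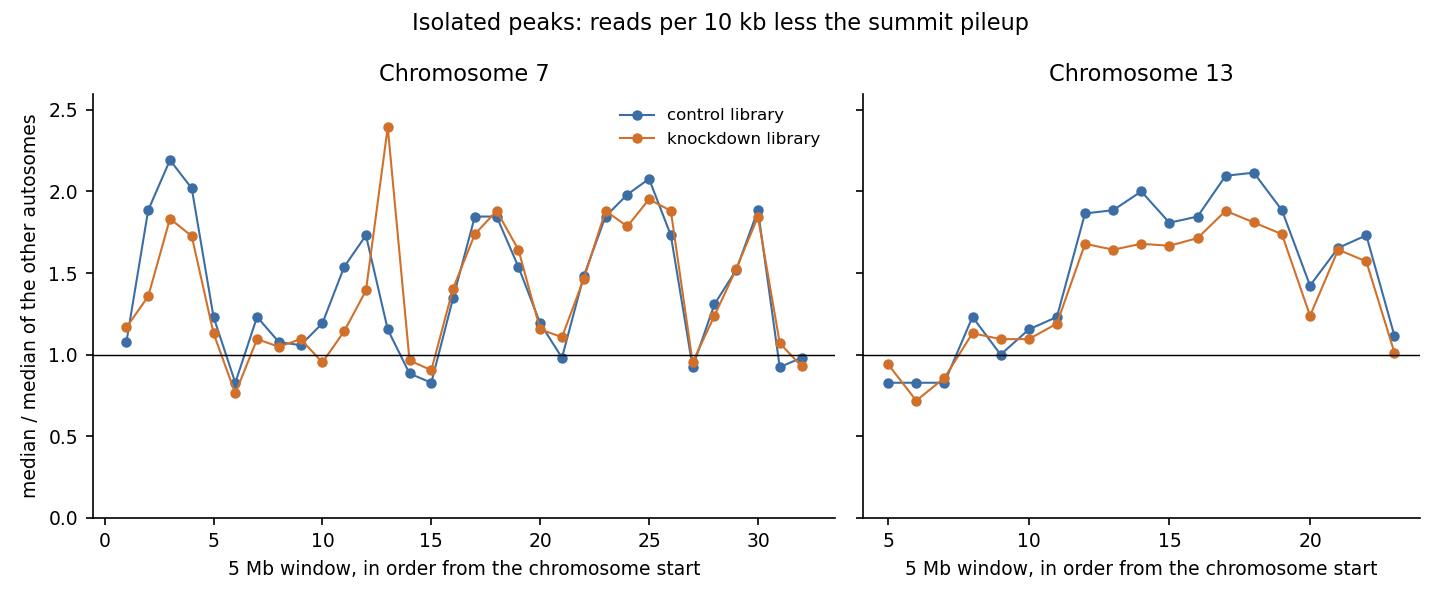
Reads per 10 kb around isolated peaks after the summit pileup is taken away, as the median of each 5 Mb window over the median of the other autosomes, for windows with at least 10 isolated peaks. On chromosome 13 the 8 windows from 55 to 95 Mb lie at 1.64 or more in both libraries, above the 7 windows before them, which reach at most 1.23.

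Set directly against each other, the libraries differed in their background between the parts of chromosome 7. At overlapping peaks the 10 kb around a site is nearly the same in both libraries, so the log2 ratio of knockdown to control reads per 10 kb was taken there, leaving out pairs at the floor, and the median over 24738 pairs of the other autosomes, 0.37, was subtracted. Chromosome 7 as a whole had 0.035 (0.014 to 0.048, 2180 pairs), and chromosome 13 had -0.020 (-0.037 to 0.0014, 1082 pairs). The other 20 autosomes ranged from -0.091 to 0.12, so neither chromosome stood outside them.

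The value for chromosome 7 was a mixture. Its longest stretch without a peak in either list, from 57584118 to 62476032 or 4.89 Mb, spans the centromere. Before it the ratio was -0.062 (-0.089 to -0.028, 825 pairs), and after it 0.081 (0.061 to 0.10, 1355 pairs). The step between them, 0.143 on the log2 scale, was the largest in size of 18 autosomes that could be split in this way at a stretch of at least 1 Mb, by a narrow margin. For the other 17 the steps ran from -0.141 on chromosome 22, where 21 pairs lay on 1 side, to 0.090 on chromosome 5, with a median size of 0.023. Chromosome 16 had a step of -0.13. The split was chosen after the window values were seen, and chromosome 13 could not be split.

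The window values, which prompted the split and lend it no further support, were as follows. Of the 12 windows from 0 to 60 Mb of chromosome 7, 10 had a ratio below 0, and the interval of 3 lay wholly below. Of the 20 windows from 60 to 160 Mb, 16 were above 0, with the intervals of 8 wholly above and of 1 wholly below. Over all autosomal windows with at least 20 pairs, 15.7% had intervals above 0 and 14.6% below. The lowest window ran from 50 to 55 Mb, at -0.34 (-0.53 to -0.15, 51 pairs), with medians of 75 reads per 10 kb in both libraries. Next was the window from 60 to 65 Mb, at -0.22 (-0.31 to -0.11, 28 pairs). The highest were those from 70 to 75 Mb, at 0.23 (0.085 to 0.30, 46 pairs), and from 105 to 110 Mb, at 0.20 (0.14 to 0.29, 64 pairs).

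Over all peaks of a library, the relative background before and after the stretch was 1.30 (1.26 to 1.40) and 1.33 (1.28 to 1.37) in the control, so that no step was resolved there, and 1.26 (1.21 to 1.31) and 1.40 (1.35 to 1.45) in the knockdown library. At isolated pairs the ratio was -0.048 before and 0.099 after the stretch, a step of 0.15. The log2 ratio of summit pileups, taken the same way, went from -0.054 to 0.020. Its step, 0.074, lay well within those of the other 17 chromosomes, which ran from -0.21 to 0.15, so the summits did not set chromosome 7 apart. Of control peaks, 31.5% before and 29.1% after the stretch lay within 5 kb of another, and the part of such crowding in the step was not tested. Whether a change in copies of an arm, a difference in chromatin or a property of these 2 libraries goes with the step was not tested.

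On chromosome 13 most window intervals held 0, as they did on the other autosomes. Of 19 windows the intervals of 17 held 0, where those of 331 of 477 windows of the other autosomes did. Those of 0 lay above and those of 2 below, against 15.7% and 14.6% over all autosomal windows. The extremes were the window from 25 to 30 Mb, at 0.15 (-0.019 to 0.26, 30 pairs), and the window from 65 to 70 Mb, at -0.15 (-0.42 to -0.026, 46 pairs). The next were those from 40 to 45 Mb, at 0.080 (-0.096 to 0.11), and from 100 to 105 Mb, at -0.071 (-0.13 to 0.034).

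**Figure D4:**
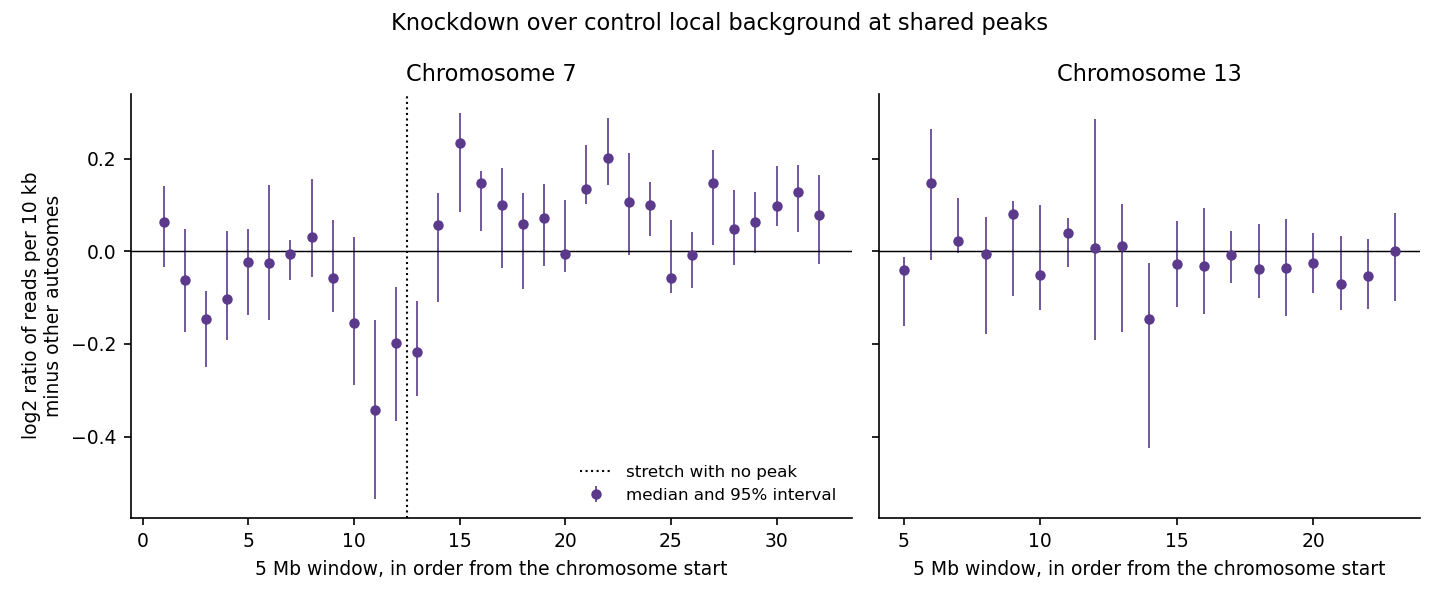
Log2 ratio of knockdown to control reads per 10 kb at overlapping peaks, less the value of the other autosomes, as the median of each 5 Mb window with at least 20 pairs and its 95% interval. On chromosome 7, 10 of 12 windows before the stretch without peaks (dotted) lie below 0 and 16 of 20 after it lie above; on chromosome 13 the intervals of 17 of 19 windows hold 0.

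Overlap between the lists differed between the chromosomes. A partner means a peak of the other list that shares at least 1 bp. On chromosome 7, 2300 of 3588 control peaks had one, or 64.1% (62.5 to 65.7%), and 2282 of 2853 knockdown peaks, or 80.0% (78.5 to 81.4%). For chromosome 13 the numbers were 1135 of 1937, or 58.6% (56.4 to 60.8%), and 1127 of 1484, or 75.9% (73.7 to 78.1%). Over all autosomes 60.7% of control and 79.4% of knockdown peaks had a partner. Chromosome 13 had the smallest share of partnered knockdown peaks among the 22 autosomes. Its interval overlapped that of chromosome 20, at 76.2% (73.0 to 79.3%), so this rank is not resolved. The difference of chromosome 13 from the other 20 autosomes, -3.52 percentage points, was 0.061 points when both lists were restricted to q-values up to 1e-05.

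Strong peaks find partners more often, and the 2 measures of strength place these chromosomes differently. Given their deposited fold, in 12 bands over all autosomes, control peaks of chromosome 7 would have had partners in 65.2% of cases and those of chromosome 13 in 62.2%. Given their summit pileup the shares would be 67.3% and 66.1%. The observed shares differed from those by fold by -1.08 and -3.55 percentage points, and from those by pileup by -3.22 and -7.54 points. In the knockdown list the differences of chromosome 13 were -2.42 points by fold and -5.68 by pileup. Where background is high a given pileup makes a lower fold, so the comparison by pileup sets peaks of lower enrichment here against others.

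Strong peaks were nearly all partnered, and the difference between chromosome 13 and the other autosomes varied with the fold. Among control peaks with a fold from 6 to 8, 60.6% (55.9 to 65.2%) had a partner on chromosome 13, against 66.2% on chromosome 7 and 67.0% on the other autosomes. With a fold from 4 to 6 the shares were 33.2% (29.7 to 36.8%), 37.9% and 37.8%. At a fold of 12 or more they were 95.3% (92.0 to 97.6%), 98.2% and 97.0%. With a fold below 4 the share was 18% (11.0 to 26.9%) on chromosome 13, against 18.0% on the other autosomes. Knockdown peaks of chromosome 13 were partnered in 79.6% (75.3 to 83.6%) at a fold from 6 to 8, against 81.2%, and in 94.4% (91.5 to 96.5%) at a fold from 8 to 12, against 97.0%. All 462 knockdown peaks with a fold of 12 or more on chromosome 7 and all 200 on chromosome 13 had a control partner. Peaks without a partner had a median control summit of 7 reads on both chromosomes, against 13 reads for partnered ones on chromosome 7 and 14 on chromosome 13.

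Overlap by window ranged from 50.6 to 73.2% of control peaks on chromosome 7 and from 48.4 to 67.9% on chromosome 13. The highest windows of chromosome 7 were the sparse one from 60 to 65 Mb, with 30 of 41 control peaks, and that from 95 to 100 Mb, with 111 of 156, or 71.2% (63.4 to 78.1%). Its lowest ran from 65 to 70 Mb, with 43 of 85, or 50.6% (39.5 to 61.6%) against 61.9% given by fold, and from 50 to 55 Mb, with 50 of 96, or 52.1% (41.6 to 62.4%) against 62.5%. The window from 50 to 55 Mb is the one with the lowest ratio of knockdown to control background. On chromosome 13 the highest were the windows from 100 to 105 Mb, with 76 of 112, and from 105 to 110 Mb, with 57 of 84, both 67.9%. Its lowest were those from 60 to 65 Mb, with 44 of 91, or 48.4% (37.7 to 59.1%) against 61.1% by fold, and from 65 to 70 Mb, with 45 of 93, also 48.4% (37.9 to 59.0%) against 58.3%. Both lie in the stretch of high background from 55 to 95 Mb, where 404 of 718 control peaks, or 56.3% (52.6 to 59.9%), had a partner against 63.1% by fold.

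Few windows left the share given by fold. In the control list the interval lay above it in 2 and below it in 4 of the 32 windows of chromosome 7, where 8.32% and 4.34% of all autosomal windows did. On chromosome 13 it lay above in 0 and below in 1 of 19. In the knockdown list 1 window of chromosome 7 lay above and 0 below, where 1.65% and 1.47% of all windows did, and 0 and 1 of chromosome 13. The 2 windows above it in the control list of chromosome 7 were the first of the chromosome, from 0 to 5 Mb, at 67.4% against 57.3%, and that from 150 to 155 Mb, at 69.2% against 58.1%; both were singled out after their values were seen.

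**Figure D5:**
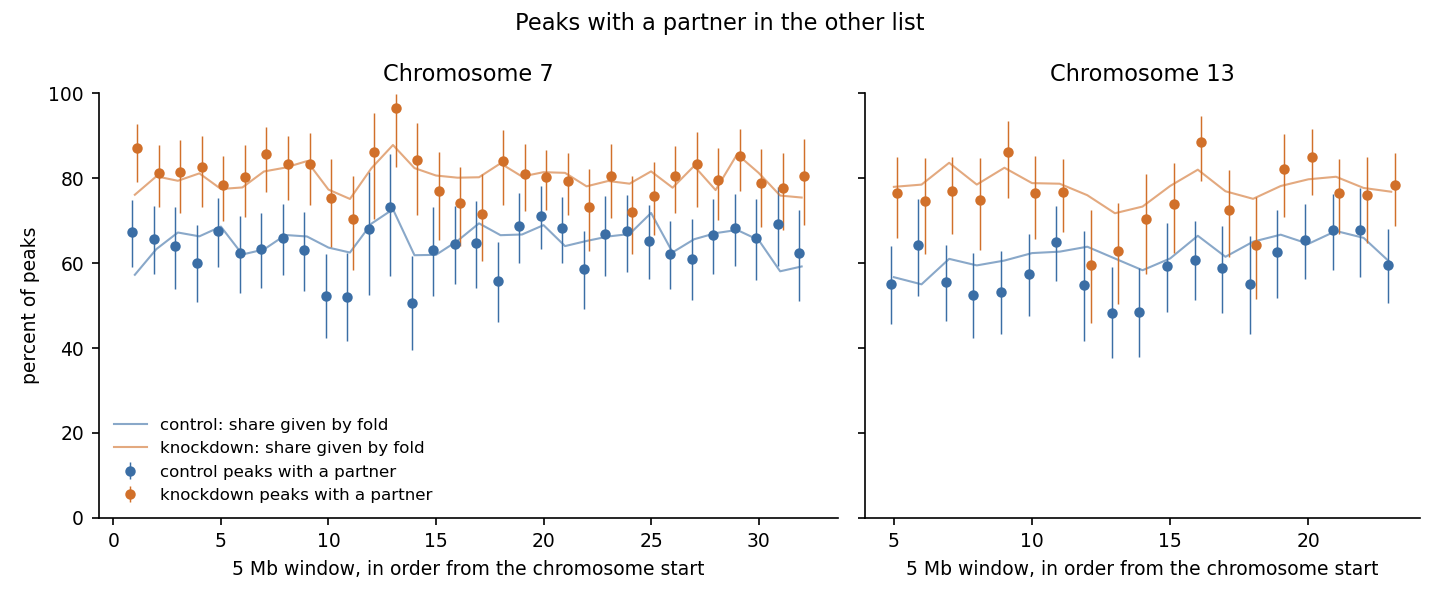
Percent of peaks with a partner in the other list in each 5 Mb window with at least 20 peaks (points, with exact binomial 95% intervals) and the percent that their deposited fold would give (lines). Control shares (blue) run from 50.6 to 73.2% on chromosome 7 and from 48.4 to 67.9% on chromosome 13.

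The single peaks with the densest surroundings were the same sites in both libraries on chromosome 7. The control peaks at chr7:21466518-21467191 and chr7:21467378-21468150 lay in 648 and 647 reads per 10 kb, about 15 times the reference. Their knockdown partners lay in 754 and 758 reads per 10 kb, and the 4 summits held 67 and 53 control reads and 69 and 58 knockdown reads. On chromosome 13 the densest control pair was chr13:74707991-74708256 and chr13:74708370-74708795, each in 615 reads per 10 kb, with partners in 778 and 775. The densest knockdown pair was another, chr13:111364715-111365112 and chr13:111365220-111365618, in 819 and 811 reads per 10 kb, where the control partners had 551 and 546. Peaks so close together fill each other's surroundings, so these values are not background in the narrow sense.

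The tallest summits were shared as well. On chromosome 7 the peak at chr7:121783974-121784534 held 83 control reads and its partner 92 knockdown reads, with folds of 21.7 and 20.5 in their own lists. Next in the control list was chr7:112579553-112580483, with 74 reads and a partner of 80. Next in the knockdown list was chr7:120590515-120591415, with 87 reads and a partner of 64. The chromosome 13 site at chr13:74864557-74864892 held 79 control and 69 knockdown reads, and chr13:59161233-59161650 held 74 and 58. The tallest knockdown summit of chromosome 13 was chr13:98085153-98085805, with 72 reads and a control partner of 70.

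Among peaks without a partner, the strongest lay on chromosome 13 in the control list. The peak at chr13:58520592-58520809 had a fold of 18.5 and 32 reads, in surroundings of 83 reads per 10 kb, 199 kb from the nearest knockdown peak. The peak at chr13:109924366-109924559 had a fold of 16.8, 25 reads and 58 reads per 10 kb around it. On chromosome 7 the strongest such control peaks were chr7:144515710-144515899, with a fold of 15.6 and 26 reads, and chr7:52780757-52780956, with a fold of 13.2 and 31 reads. The latter lies in the window from 50 to 55 Mb, and a knockdown peak was 2570 bp away from it.

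Knockdown peaks without a partner were weaker. The highest folds on chromosome 7 were found at chr7:52227270-52227404 and chr7:105683322-105683494, with 17 reads each and folds of 11.9 and 11.8. On chromosome 13 they were chr13:51860617-51860773, with a fold of 9.65 and 12 reads, and chr13:103054781-103054952, with a fold of 9.59 and 19 reads. The first of the chromosome 13 pair lay in 39 reads per 10 kb and the second in 122, which shows how the same fold can rest on different surroundings. A site missing from a list was below the caller's limit there and is not shown to be closed.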

How the data were processed

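Open chromatin was profiled by ATAC-seq in 2 libraries of Z-138 cells, 1 per group by their genotype labels. According to the submitters' processing notes the tools were BWA, MACS2 and bcl2fastq 2.17.1.14 on the build hg19; other versions and all parameters are not given here. Each library has its own headerless list of 10 columns, so peaks were called per library. The authors' deposited fold is a ratio of pileup to expected background at the summit, with 1 read added to each. Summit p-values and q-values were deposited on a −log10 scale. The deposited score was, for every peak, 10 times the −log10 q-value cut to a whole number, and the other deposited column is the summit's offset in bases.

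Pileup and background were solved from fold and p-value as a Poisson tail (Python 3.11.15, scipy 1.17.1). The solution returned each p-value to within 2.82e-05 on the −log10 scale for control and 4.15e-05 for knockdown peaks. Background was scaled to 10 kb by the shortest peak, 94 and 89 bp; all 43837 and 35507 values above the floor then came out as whole reads within 0.02. Fold and p-value were also recomputed from the solved values and solved again, and all 55259 and 41611 pileups came back. This checks the solving step only and is no independent test of the pileups. Read totals are not in the lists, and median summits of 8 to 12 reads set the precision. Medians carry order-statistic and shares exact Clopper-Pearson 95% intervals. Both cover counting error only, since reads without molecular identifiers are not independent molecules. The members, window size, limits and rule for named regions were chosen with earlier results of these data known. Named were the 3 highest and 3 lowest windows in control background, the 2 highest and lowest in overlap and in ratio, runs of at least 3 windows past the limit, and the 2 top peaks by background, pileup and unpartnered fold per chromosome and library. Alternatives are in the closing section, and the 206 peaks of chromosome Y entered no comparison.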

Additional observations from a re-analysis of the deposited data

How the results depend on the processing

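No paired analysis was possible because each group has 1 library, and for the same reason no replicate could be left out. Of 545 alternative values, 386 counted as unchanged, 157 as moved and 2 changed direction. Values with an interval of counting error were judged by it, and shares of windows by a factor of 1.5. Among the 545 were 96 yes or no calls of a partner at named peaks, of which 94 stayed the same. They also held 304 values of named windows, of which 210 stayed the same. Values below are given for chromosome 7 control, chromosome 7 knockdown, chromosome 13 control and chromosome 13 knockdown, in that order unless named, and the causes of the shifts were not tested. Relative background stayed above that of the other autosomes under all alternatives tried. It was 1.4, 1.385, 1.457 and 1.462 at isolated peaks, and 1.5, 1.405, 1.615 and 1.548 there with the summit taken away. Without peaks at the floor it was 1.216, 1.229, 1.255 and 1.229, and against the median of chromosome medians 1.407, 1.431, 1.432 and 1.448. At the lower quartile it moved to 55 against 44 reads per 10 kb, a ratio midway between 1.2 and 1.3, in the knockdown library of chromosome 7, and on chromosome 13 to 1.444 and 1.295. Isolated peaks of at most 150 bp, with the summit taken away, gave 1.318, 1.4, 1.5 and 1.571. That alternative was added after seeing the data. In the window from 60 to 65 Mb of chromosome 7 this alternative turned the knockdown value to 0.931, on 6 peaks.

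Relative summit pileup on chromosome 7 was 1.182 and 1.154 at q-values up to 1e-05, 1.182 and 1.167 at partnered peaks, 1.237 and 1.21 as a mean, and 1.3 and 1.28 at the 90th percentile, which was added after seeing the data. On chromosome 13 it was 1.273 and 1.083 at partnered peaks, and 1.077 in the knockdown library at q-values up to 1e-05. Relative peak number of control peaks on chromosome 7 was 1.306 at those q-values and 1.298 at a fold of at least 5.

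The overlapped share was 53.43, 67.19, 47.96 and 62.6% with 50% reciprocal overlap, 67.11, 83.91, 62 and 80.32% with gaps up to 500 bp, and 74.21, 74.27, 69.11 and 70.22% with lists of equal length. At q-values up to 1e-05 it was 68.83% and 81.93% on chromosome 7 and 65.28% for control peaks of chromosome 13. Its difference from the other autosomes was then 1.909 and 4.001 percentage points on chromosome 7, and 0.0605 points for knockdown peaks of chromosome 13, against -3.519 as reported. For knockdown peaks of chromosome 7 this difference was 2.358 points with reciprocal overlap and 2.858 with lists of equal length, and for those of chromosome 13 it was -1.199 with lists of equal length.

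With windows of 10 Mb, 0% of control windows were low on chromosomes 7 and 13. At 2.5 Mb they were 8.065% of control windows of chromosome 7 and 2.632% of knockdown windows of chromosome 13, and 5.263% of the latter at isolated peaks. The share of high windows stayed within 1.5 times the reported one under the alternatives tried. With pairs at the floor kept, the log2 ratio of background was 0.013 on chromosome 7 and -0.047 on chromosome 13. The lowest summits called had 3 reads in control and 4 in knockdown cells, and how far depth limits weak peaks was not tested.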
